A study of Xenopus tropicalis with 26 samples.

Results

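In the western clawed frog, Xenopus tropicalis, 12 of 27836 counted features were nearly silent in early embryos, peaked in the neurula and had fallen again by the tailbud stage. They were chosen on counts of whole transcriptome target sequencing (WTTS), a method that sequences the polyadenylated ends of transcripts. A level is given in CPM, the count of a feature in a library scaled to a fixed library total. The mean of the 4 libraries of stages 6 and 8 had to be at most 1 CPM. The mean of the 2 families at stage 15 had to reach 10 CPM, at least 4 times the mean at stage 11 and more than 4 times the mean at stage 28. These values describe the members, and no difference between stages is tested on them.

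WTTS was run on pools of whole embryos from 2 families. Stages 6, 8, 11, 15 and 28 gave 1 library per family each, and the labels name no treatment or mutation. The same families gave RNA-seq libraries at stages 6, 8 and 11, in which reads come from along the whole transcript. Adults were represented by 2 technical repeats of WTTS on 1 female, and by a whole-body RNA pool of 3 male and 3 female frogs, which was used in 7 WTTS trials of changing protocol and in 1 RNA-seq library. The 2 families are the biological replicates. In pools of whole embryos, fewer cells that express a feature and less RNA in each such cell cannot be told apart.

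Xenopus embryos at stage 6 are in cleavage and those at stage 8 are blastulae, both living mainly on transcripts stored in the egg, and the embryo's own genome is switched on at about the blastula stage. Stage 11 is a gastrula, in which the germ layers are laid down. Stage 15 is a neurula, in which the neural plate rises and folds and the somites and neural crest begin to form, and stage 28 is a tailbud embryo with forming organs. Transient neurula transcripts in vertebrates are known to include regulators of patterning that are used for a short time and then restricted to small groups of cells. The deposited table gives identifiers and scaffold positions without gene names, and none of the identifiers matched the gene table at hand, so no member can be given a name or a role, no marker genes could be checked, and no sequence is shown.

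Total counts ran from 1536128 to 6276132 in embryo WTTS and from 110710673 to 131001449 in embryo RNA-seq, so that 3 counts, the limit that a count of 0 allows, were 0.478 to 1.95 CPM in WTTS and 0.0229 to 0.0271 CPM in RNA-seq. The 9 adult WTTS libraries held 8364595 to 42424000 counts and the adult RNA-seq library 73522777. A single feature took 13.6% and 17.6% of the counts at stage 11, 17.0% and 17.5% at stage 15, and 2.97% and 9.18% at stage 28 in WTTS, against 1.04% to 2.07% at stages 6 and 8, so CPM values of all other features are lowered by that share. With library sizes scaled by the trimmed mean of M-values (TMM), 30 features met the rule, the 12 members among them. All intervals given below are exact Poisson 95% intervals, which cover counting error only.

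The limits were applied in turn. At most 1 CPM at stages 6 and 8 was found in 13731 features, of which 368 reached 10 CPM at stage 15. Of these 368, 169 were also at least 4 times above stage 11. Only 12 of the 169 had fallen more than 4-fold by stage 28, while 157 had not. Taken singly, the limit of 10 CPM at stage 15 kept out 429 features that met every other limit, that at stage 28 kept out 157, that against stage 11 kept out 76 and that at the early stages kept out 11. Members lay close to the limit at stage 28: XLOC_005873 was just inside with a stage 15 level 4.08 times that of stage 28, and XLOC_023137, on scaffold_8 from 42054986 to 42063939, plus strand, was just outside with 3.73 times. At the limit for early stages, XLOC_016966 was just inside with 0.936 CPM, and XLOC_025652, on scaffold_9 from 4965537 to 4997992, plus strand, was just outside with 1.08 CPM and a stage 15 mean of 1050 CPM. At the limit against stage 11, XLOC_016966 was just inside with 4.25 times and XLOC_020604, on scaffold_7 from 54313220 to 54350955, plus strand, just outside with 3.99 times. The lowest stage 15 mean inside was 13.6 CPM in XLOC_019560, and the highest outside was 9.69 CPM in XLOC_001479, on scaffold_1 from 181231142 to 181234990, plus strand.

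**Figure D1:**
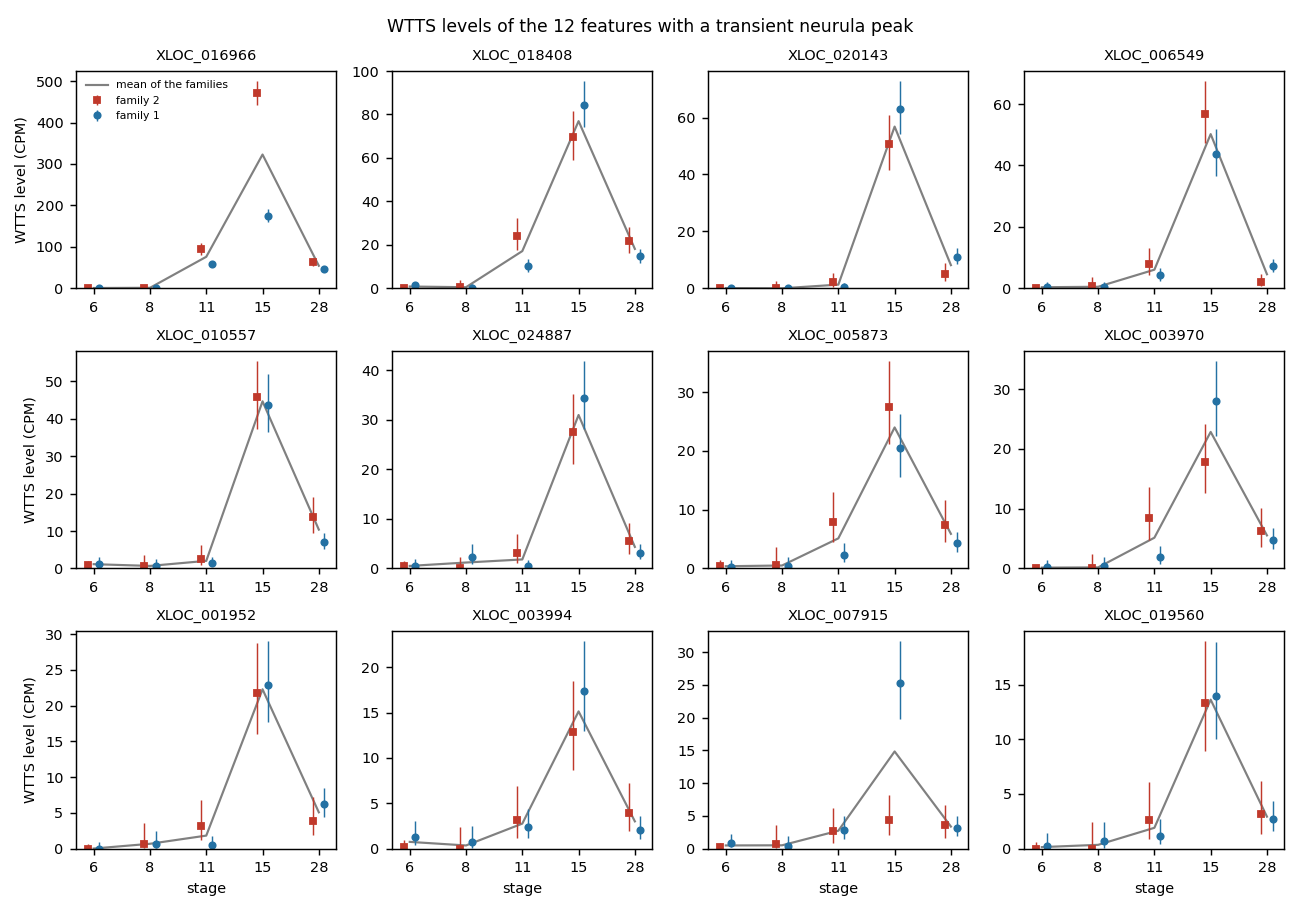
Level in CPM (linear axes that differ between panels) of each of the 12 features in WTTS by stage, with squares for family 2, circles for family 1, bars for the exact Poisson 95% interval of the library and a grey line for the mean of the 2 families. Every feature is highest at stage 15 in each family, an order that the rule favours. In XLOC_007915 in family 2 it rests on 10 counts at stage 15 against 9 at stage 28, with overlapping intervals. The families stand furthest apart at stage 15 in XLOC_016966 (471 CPM in family 2, 175 CPM in family 1) and XLOC_007915 (4.44 CPM in family 2, 25.2 CPM in family 1).

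The strongest member was XLOC_016966, on scaffold_5 from 103476705 to 103488938, minus strand. In WTTS it stood at 0.637 and 0.786 CPM at stage 6 and at 1.30 and 1.02 CPM at stage 8 in families 2 and 1. It stood at 94.5 and 57.5 CPM at stage 11, 471 and 175 CPM at stage 15 and 62.8 and 45.9 CPM at stage 28, again in families 2 and 1. This feature was already well above its early level in the gastrula, and its stage 15 peak rested more on family 2, with a mean of 323 ± 210 CPM (SD, n = 2).

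XLOC_018408, on scaffold_6 from 103538909 to 103541322, plus strand, had the second highest peak and the shortest span, 2414 bp. It reached 69.7 CPM (59.2 to 81.4) at stage 15 in family 2 and 84.2 CPM (74.0 to 95.4) in family 1. Its levels were 24.2 and 10.1 CPM at stage 11 and 21.6 and 14.7 CPM at stage 28 in families 2 and 1. The levels on the 2 sides of the peak were thus alike in this feature, with a stage 11 mean of 17.1 ± 9.95 CPM and a stage 28 mean of 18.1 ± 4.88 CPM (SD, n = 2 each).

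Between gastrula and neurula the steepest rise was that of XLOC_020143, on scaffold_7 from 5622749 to 5641404, plus strand. It had 1 count in the 4 WTTS libraries of stages 6 and 8 together, 2.10 and 0.469 CPM at stage 11, 50.6 and 63.1 CPM at stage 15 and 5.10 and 11.2 CPM at stage 28 in families 2 and 1. Its stage 15 mean was 44.2 times that of stage 11. XLOC_010557, on scaffold_3 from 11836161 to 11860165, minus strand, and XLOC_024887, on scaffold_8 from 99611872 to 99624875, minus strand, followed with 22.1 and 17.1 times. In families 2 and 1, XLOC_010557 stood at 45.7 and 43.6 CPM at stage 15 and at 13.7 and 7.01 CPM at stage 28, and XLOC_024887 at 27.5 and 34.4 CPM and at 5.49 and 3.19 CPM. In these 3 features the stage 11 level in WTTS was at most 3.15 CPM in either family, which is at most 6 counts.

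In the mean of the families the steepest fall after the neurula was that of XLOC_006549, on scaffold_2 from 91234882 to 91254663, plus strand. It stood at 7.88 and 4.22 CPM at stage 11, 56.8 and 43.6 CPM at stage 15 and 1.96 and 7.17 CPM at stage 28 in families 2 and 1. The mean at stage 15 was 11.0 times that at stage 28, with a 29.0-fold difference in family 2, where 5 counts remained at stage 28, and a 6.08-fold difference in family 1. The rank rested on family 2, since in family 1 alone XLOC_024887 fell 10.8-fold, XLOC_003994 8.39-fold, XLOC_007915 7.91-fold and XLOC_010557 6.22-fold. XLOC_006549 was the one member that met the rule with limits of 8 times in place of 4.

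The other 6 members had lower peaks, with stage 15 means between 13.6 and 24.0 CPM. XLOC_005873, on scaffold_2 from 2287062 to 2302131, plus strand, had 27.5 and 20.5 CPM at stage 15 in families 2 and 1. XLOC_003970, on scaffold_10 from 28982550 to 28985456, plus strand, had 17.7 and 28.0 CPM. XLOC_001952, on scaffold_1 from 18621706 to 18626985, minus strand, had 21.7 and 22.8 CPM. In the last of these the families lay well within each other's counting intervals, 16.1 to 28.7 CPM in family 2 and 17.7 to 29.0 CPM in family 1. XLOC_003994, on scaffold_10 from 30641337 to 30655886, plus strand, had 12.9 and 17.4 CPM at stage 15 in families 2 and 1. XLOC_019560, on scaffold_6 from 137313860 to 137319079, minus strand, had 13.3 and 14.0 CPM. Both were low, resting on 29 to 51 counts per library.

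The fall after the neurula left a level above that of the early stages. In 12 of 12 members both families at stage 28 stood above each of the 4 libraries of stages 6 and 8, against 19.9% of all features and 95.1% of the 368 features on at the neurula. The rule holds the early libraries low, so the count describes the members and sets them apart from neither group. The stage 28 mean was higher than the stage 11 mean in 10 of the 12 and lower in XLOC_016966 and XLOC_006549. The rule used both means and the share over other features was not computed, so nothing is read from this count. The ratio of the stage 15 mean to the stage 11 mean had a median of 6.34 over the 12 members. For the ratio to the stage 28 mean the median was 4.54, and the rule bounds both ratios from below.

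The peak was described once more with the families apart, since the rule had used only their means. Taken alone, family 1 gave 34 features that met all limits and family 2 gave 12, and 3 features met them in both, namely XLOC_020143, XLOC_006549 and XLOC_019560. The 12 features of family 2 are not the same set as the 12 members. Of the 12 members, 9 met the rule in family 1 and 6 in family 2. Of the 34 features chosen in family 1, 3 met the whole rule in family 2, which is 8.82% of them, against 0.0431% of all features. Of the 12 chosen in family 2, 3 met it in family 1, against 0.122% of all features. The features chosen in family 1 had their highest level at stage 15 in family 2 in 31 of 34, or 91.2%, against 9.48% of all features. Of the 12 chosen in family 2, 10 were highest at stage 15 in family 1, against 9.43% of all features. None of these shares was computed over the 368 features on at the neurula, so nothing is read from the gaps to all features. Being highest at stage 15 is part of the rule, so it must hold at least as often as the whole rule. Nothing is read from that order, and with 1 library per family and stage no test of the peak was made. Most of the 34 missed the rule in family 2 on the fold against stage 11, which 22 of them did not reach.

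XLOC_007915, on scaffold_2 from 101972396 to 101975236, minus strand, was the member whose families differed most at stage 15. At stage 15 it had 4.44 CPM in family 2 (10 counts, 2.13 to 8.16 CPM) and 25.2 CPM in family 1 (74 counts, 19.8 to 31.7 CPM). In family 2 the stage 15 level was 1.69 times that of stage 11 and 1.26 times that of stage 28, against 8.96 and 7.91 times in family 1. It was also the only member below 10 CPM at stage 15 in a family. Other members missed the 4-fold limits in 1 family too. Against stages 11 and 28, XLOC_003970 had 2.11 and 2.83 times and XLOC_018408 2.88 and 3.23 times in family 2. XLOC_016966 had 3.04 and 3.80 times in family 1.

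The RNA-seq libraries, which the rule did not use, asked whether the features were already on in the gastrula. Of the 12 members, 10 had risen by stage 11, and none had fallen. In edgeR's quasi-likelihood test of stage 11 against the mean of stages 6 and 8, with Benjamini-Hochberg adjustment over 19413 features and a threshold of 0.05, 34.2% of all features were called higher and 29.7% lower. In WTTS, 349 tested features had at most 1 CPM at stages 6 and 8 and at least 10 CPM at stage 15. Of these, 96.6% were called higher and 0% lower in RNA-seq. The members' 10 of 12 was not above the first share. With 0% called lower there, the absence of falls does not set the members apart. With other scaling, no filter, DESeq2 or limma-voom the count stayed at 10.

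XLOC_016966 had 0.190 and 0.237 CPM at stage 6, 0.206 and 0.198 CPM at stage 8, and 107 and 98.9 CPM at stage 11 in RNA-seq of families 2 and 1. Its log2 rise was 8.80 (SE 0.18, adjusted p = 1.14e-06), and the families differed little. XLOC_005873 had the largest fitted rise among members with early counts, 9.43 on the log2 scale (SE 0.71, adjusted p = 8.29e-05). It had at most 0.0632 CPM in any library of stages 6 and 8, and 37.5 CPM in family 2 and 11.4 CPM in family 1 at stage 11. XLOC_018408 had a log2 rise of 9.07 (SE 0.43, adjusted p = 1.64e-05) and stood at 31.0 and 16.6 CPM at stage 11 in families 2 and 1. These 3 features were far above their early level in both families before the neurula peak.

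The rise was also large in XLOC_007915, with a log2 of 8.45 (SE 0.68, adjusted p = 0.000107), in XLOC_006549 with 7.88 (SE 0.56, adjusted p = 6.67e-05) and in XLOC_020143 with 7.50 (SE 0.74, adjusted p = 0.000239). XLOC_007915 stood at 6.83 and 6.22 CPM at stage 11 in families 2 and 1, so the family gap seen at stage 15 in WTTS was not there in the gastrula. XLOC_003994 rose by 6.69 (SE 0.43, adjusted p = 4.55e-05), XLOC_003970 by 6.25 (SE 0.68, adjusted p = 0.00037) and XLOC_001952 by 4.41 (SE 0.78, adjusted p = 0.00286). The size of several rises rested on the stage 11 library of family 2. Without it the log2 rise was 4.61 in XLOC_003970, 2.09 in XLOC_001952, 5.94 in XLOC_003994, 6.58 in XLOC_020143, 7.28 in XLOC_006549 and 8.34 in XLOC_005873, and all of the 10 were still called. XLOC_019560 had 0 counts in all 4 RNA-seq libraries of stages 6 and 8 and 0.934 and 0.370 CPM at stage 11 in families 2 and 1. Against 3 counts per library its mean of 0.652 CPM was at least 26.2-fold higher (adjusted p = 0.00126).

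**Figure D2:**
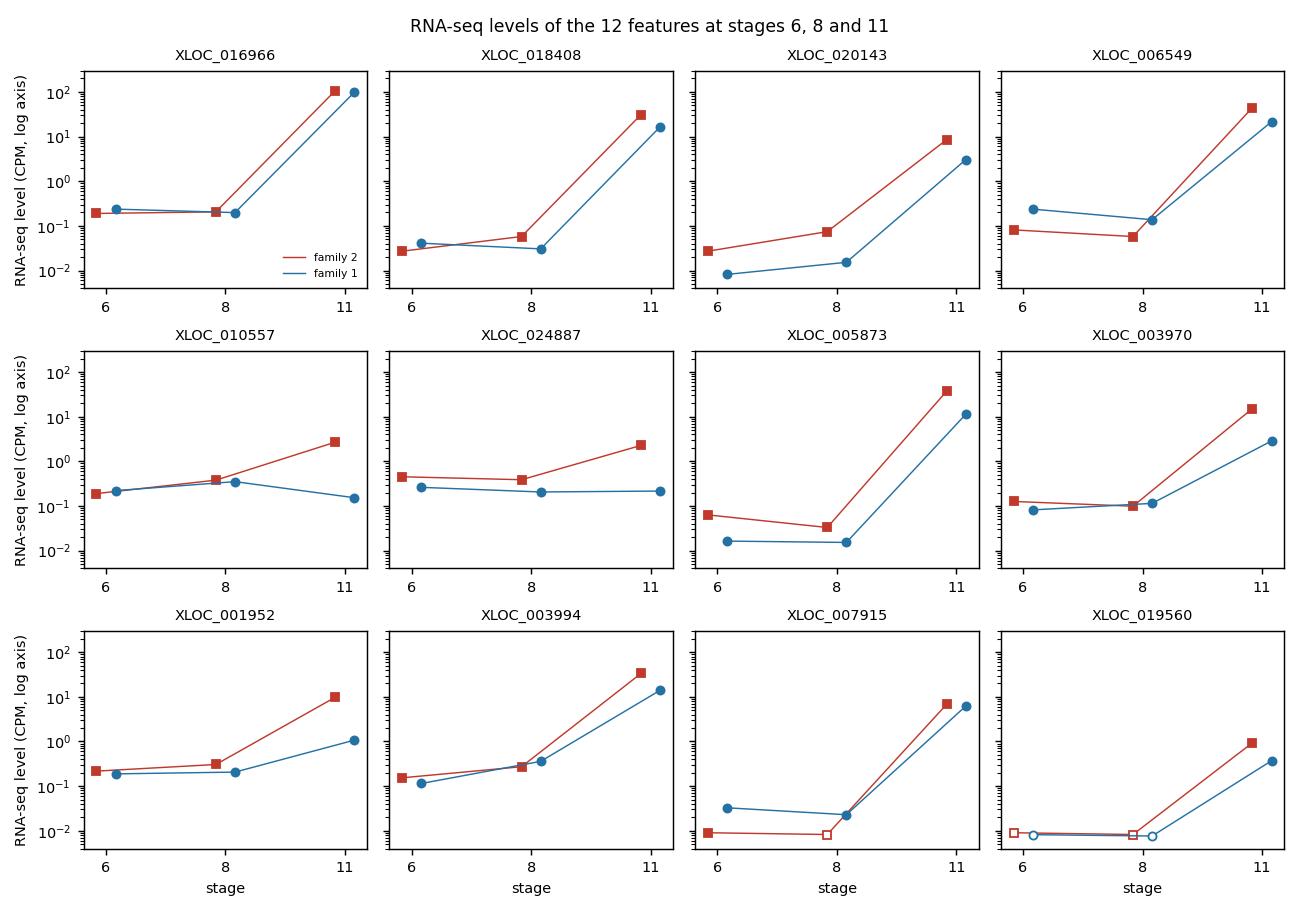
RNA-seq level in CPM (log axis) of each of the 12 features at stages 6, 8 and 11, with squares for family 2 and circles for family 1. Open symbols are libraries with 0 counts, drawn at the level of 1 count, and XLOC_010557 and XLOC_024887 are the panels in which family 2 stands above its early level at stage 11 and family 1 does not.

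The other two, XLOC_010557 and XLOC_024887, did not pass the test, with log2 changes of 2.21 (SE 0.89, adjusted p = 0.0671) and 1.77 (SE 0.82, adjusted p = 0.102). XLOC_010557 had 0.190 and 0.221 CPM at stage 6, 0.380 and 0.351 CPM at stage 8, and 2.69 and 0.153 CPM at stage 11 in families 2 and 1. XLOC_024887 had 0.452 and 0.262 CPM at stage 6, 0.388 and 0.206 CPM at stage 8, and 2.28 and 0.216 CPM at stage 11 in families 2 and 1. Both features were thus above their early level at stage 11 in family 2 alone. Without the stage 11 library of family 1, both passed, with log2 changes of 3.10 (adjusted p = 0.00101) and 2.61 (adjusted p = 0.00756), and all 12 members were called. Without the stage 11 library of family 2 the changes were -0.97 (adjusted p = 0.147) and -0.73 (adjusted p = 0.386), so the direction in both features rested on 1 library. The lone stage 11 library is then assumed to vary like those of the other stages.

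XLOC_024887 overlaps a feature on the other strand, XLOC_023788, on scaffold_8 from 99621197 to 99646907, plus strand. That feature had 8.33 and 9.29 CPM at stage 6, 13.2 and 14.2 CPM at stage 8 and 2.97 and 1.52 CPM at stage 11 in RNA-seq of families 2 and 1. XLOC_023788 was thus lower at stage 11 in both families, while XLOC_024887 rose in family 2 alone. Whether counting used strand is not known, so reads of the partners may not be told apart, and their part in the early level of XLOC_024887 was not tested. XLOC_020143 holds a smaller feature of its own strand, XLOC_020144, from 5633451 to 5637892, which stood at 10.5 and 4.90 CPM at stage 11 in RNA-seq and at 3.99 and 2.39 CPM at stage 15 in WTTS in families 2 and 1. How reads in the shared stretch were assigned is not stated.

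The gastrula levels of family 2 were mostly higher than those of family 1. In WTTS XLOC_007915 was lower in family 2, at 2.63 against 2.82 CPM. In RNA-seq its ratio of family 2 to family 1 was 1.10, and that of XLOC_016966 was 1.09. In RNA-seq at stage 11 the level was higher in family 2 in 12 of 12 members, against 53.6% of the 15734 features whose mean there reached 0.5 CPM, and at least 2 times as high in 9 of 12, against 9.57%. The median ratio of family 2 to family 1 was 2.67 over the members and 1.03 over all features. The same held widely among features on at the neurula: of the 330 with at most 1 CPM at stages 6 and 8, at least 10 CPM at stage 15 in WTTS and at least 0.5 CPM here, 85.5% were higher in family 2 and 50% at least 2 times as high. In WTTS at stage 11, 11 of 12 members were higher in family 2, against 68.8% of 16814 features and 82.2% of 354 on at the neurula, and 7 were at least 2 times as high, against 29.4% and 53.1%, with a median ratio of 2.32 over the members and 1.32 over all features.

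**Figure D3:**
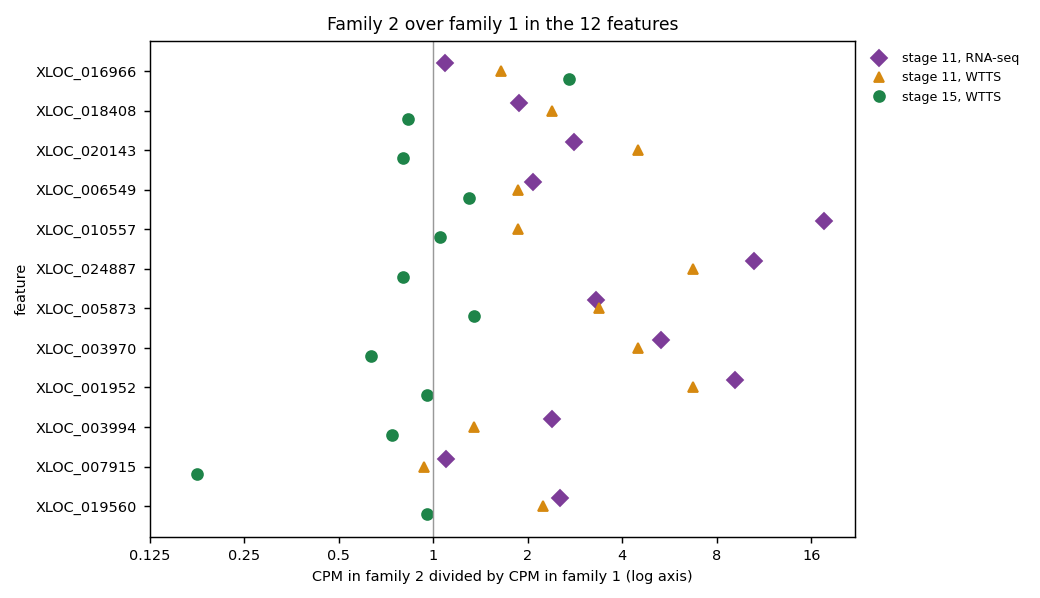
Level in family 2 divided by that in family 1 (log axis) for each of the 12 features, with diamonds for RNA-seq and triangles for WTTS at stage 11 and circles for WTTS at stage 15. At stage 11 the ratio lies above 1 in 12 features in RNA-seq and in 11 in WTTS, while at stage 15 it lies above 1 in 4 and below 1 in 8.

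Before the gastrula and at the peak the members were split between the families. In RNA-seq, 6 members were higher and 5 lower in family 2 at stage 6, and 7 were higher and 4 lower at stage 8. Several of these orders rest on few counts, such as 3 against 1 in XLOC_020143 at stage 6. Of features averaging 0.5 CPM or more, 40.8% were higher in family 2 at stage 6 and 50.2% at stage 8. The highest member means were 0.357 CPM at stage 6 and 0.365 CPM at stage 8. These shares thus cover no member and give the members no background. At stage 15 in WTTS, 4 members were higher and 8 lower in family 2, against 63.7% of 15890 features higher, with a median ratio of 0.889 over the members and 1.22 over all features. XLOC_010557 had the widest gap at stage 11 in RNA-seq, a ratio of family 2 to family 1 of 17.6, but a ratio of 1.87 at stage 11 in WTTS, from 5 and 6 counts, and of 1.05 at stage 15 in WTTS. XLOC_024887 had a ratio of 10.5 at stage 11 in RNA-seq, 6.72 at stage 11 in WTTS and 0.799 at stage 15 in WTTS. XLOC_001952 had 9.15, 6.72 and 0.951 in the same order. The WTTS ratios of these last features at stage 11 rest on 6 counts in family 2 and 2 in family 1. For XLOC_010557 the wide gap at stage 11 was thus seen in RNA-seq alone. At stage 28, 9 members were higher and 3 lower in family 2, against 72.4% of features higher. For stages 15 and 28 the share over features on at the neurula was not computed, and the rule had used these libraries. Nothing is read from the gaps to all features at these stages.

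The difference between families in the rise to stage 11 was also fitted in RNA-seq. The fit was added after the family gap at stage 11 had been seen in the same libraries, so it restates that gap on a log scale and is no separate evidence for it. Stages 6 and 8 served as repeats of the early level, and the single stage 11 library of each family was assumed to vary like them. By this fit 2 of the 12 members were called with a larger rise in family 2, against 1.04% of 19413 features in the edgeR quasi-likelihood test and 6.88% of the 349 tested features on at the neurula, and none had a smaller one, against 0.18%. The log2 rise of XLOC_010557 was larger by 4.06 (SE 0.66, adjusted p = 0.0408) and that of XLOC_001952 by 2.72 (SE 0.42, adjusted p = 0.0343). In XLOC_001952 the stage 11 levels were 9.81 CPM in family 2 and 1.07 CPM in family 1. Both calls were lost with limma-voom, with adjusted p of 0.0759 and 0.0636. The number called also changed when 1 early library was left out. Those fits keep 1 early library in a family, so their counts are not given.

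Over all stages, no member passed the threshold between the families in edgeR's quasi-likelihood test, which does not show that the families were alike. In WTTS, with stage accounted for and the 5 stages as repeats of a family, the test called 0 of 12 members, against 0.685% of 14013 features higher and 2.6% lower in family 2. DESeq2 and limma-voom also called 0. By edgeR 1 member, XLOC_007915, had an unadjusted p below 0.05, with a log2 of -1.31 in family 2 against family 1. The members were chosen on these 10 libraries, so nothing is read from the WTTS count. In RNA-seq the edgeR test called 0 of 12, against 0.67% of 19413 features higher and 0.876% lower, with 3 members at an unadjusted p below 0.05, all higher in family 2. DESeq2 called 2 of these, XLOC_005873 with a log2 of 1.67 (adjusted p = 0.000392) and XLOC_020143 with 1.65 (adjusted p = 0.0484). Limma-voom called XLOC_005873 alone (adjusted p = 0.0221). Both also called more features higher in family 2 over the whole data, 476 by DESeq2 and 223 by limma-voom, against 130 by edgeR.

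At stage 11 both methods had measured the same families, and the RNA-seq level was higher than the WTTS level in 9 of 12 members. The share of other features with this order was not computed, so nothing is read from the count. XLOC_003994 stood at 23.7 ± 13.7 CPM in RNA-seq and 2.75 ± 0.569 CPM in WTTS (SD, n = 2 each), a ratio of 8.63. XLOC_006549 had a ratio of 5.45, XLOC_005873 of 4.78 and XLOC_020143 of 4.51. The median ratio was 2.08 over the members and 1.24 over the 14896 features with at least 1 CPM at stage 11 in WTTS. The rule favours low WTTS values at stage 11, so this ratio was not tested. For XLOC_003994 the RNA-seq mean at stage 11 was above the WTTS mean of 15.1 ± 3.20 CPM at stage 15 (SD, n = 2), and the methods differ in scale, so the 2 values set no order between the stages.

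Adult levels in WTTS lay below the neurula peak. In the adult female every member was below its mean at stage 28 and far below its peak. The stage 15 level was between 15.1 and 758 times the female mean, with a median of 155 times. The rule asks for a high stage 15 level, and shares over other features were not computed for these orders. Nothing is therefore read from them. At 1 CPM or more in the female were 2 of 12 members, against 49.7% of all 27836 features and 42.7% of the 368 features on at the neurula. These were XLOC_016966, with 2.54 and 2.74 CPM in the repeats, and XLOC_005873, with 2.10 and 1.08 CPM. Both stayed well under their stage 28 means of 54.3 ± 11.9 and 5.88 ± 2.23 CPM (SD, n = 2 each). The other 10 members had at most 0.897 CPM in either repeat.

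At the low end, XLOC_001952 had 0 and 2 counts, XLOC_007915 0 and 3 counts and XLOC_020143 0 and 5 counts in the female repeats. By the limit of 3 counts, a count of 0 allows up to 0.263 CPM in the first repeat. XLOC_018408, the second highest at the peak, had 0.0877 and 0.135 CPM, or 1 and 3 counts. XLOC_006549 had 1 count in each repeat, and XLOC_019560 had 1 and 2 counts. At these counts the female levels of these features cannot be ranked.

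In RNA-seq of the adult pool of both sexes, 6 of 12 members had 1 CPM or more, against 59.4% of all features and 62.0% of the 368. With library sizes scaled by TMM over the adult libraries, the numbers were 3 members in RNA-seq and 1 in the female. Shares over all features were not computed with that scaling, so these 2 numbers have no background. XLOC_005873 was highest with 4.80 CPM, followed by XLOC_016966 with 3.16 and XLOC_003994 with 2.71 CPM, although RNA-seq levels of different features also grow with transcript length. XLOC_020143 had 1.97 CPM and XLOC_007915 1.86 CPM, from 145 and 137 counts, while in the female these 2 had at most 5 counts per repeat. In WTTS of the same pool XLOC_020143 had a median of 0.251 and a highest level of 0.938 CPM over the 7 trials, and XLOC_007915 had a median of 0.0836 and a highest level of 0.477 CPM. In both features the RNA-seq level of the pool was thus above every WTTS trial of the same RNA when no TMM scaling was used. TMM-scaled levels of the trials are not given, so the order under that scaling is not known here. TMM scaling lowered the RNA-seq levels to 2.06 CPM in XLOC_005873, 1.36 in XLOC_016966, 1.16 in XLOC_003994, 0.847 in XLOC_020143 and 0.801 CPM in XLOC_007915, and the female means to 1.52 CPM in XLOC_016966 and 0.930 CPM in XLOC_005873.

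**Figure D4:**
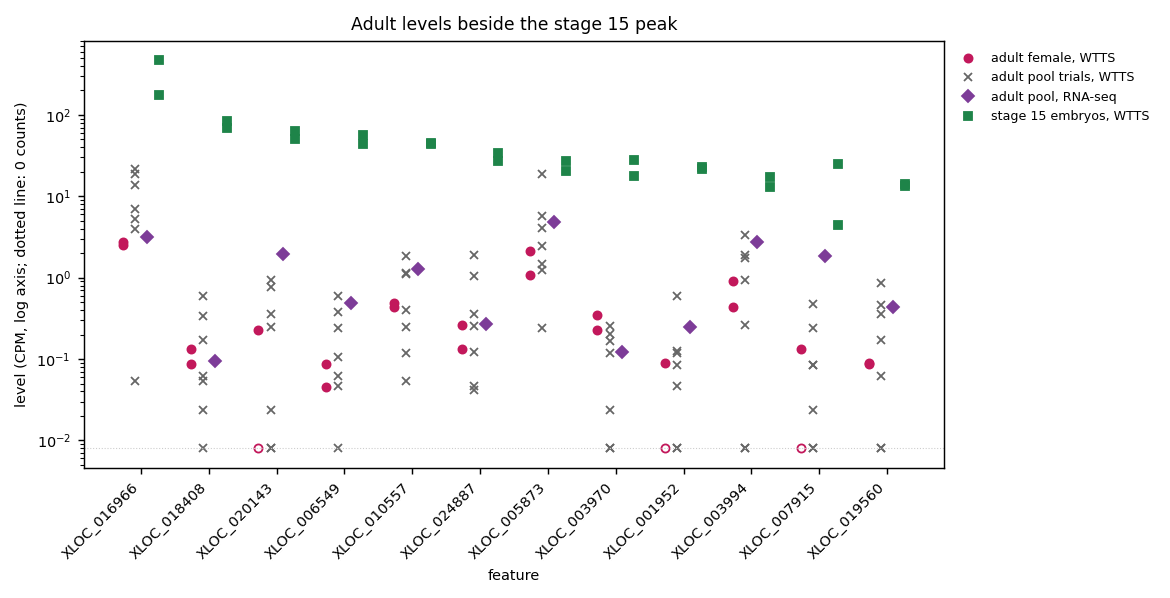
Level in CPM (log axis) of each of the 12 features in the adult female (circles, 2 technical repeats in WTTS), the adult pool (crosses, 7 WTTS trials; diamonds, 1 RNA-seq library) and stage 15 embryos (squares, 2 families in WTTS); symbols on the dotted line are libraries with 0 counts. All adult WTTS libraries lie below the stage 15 mean of their feature, which the rule asks to be high. XLOC_005873 comes nearest to it, at 18.9 CPM in trial 1 of the pool against 24.0 CPM. The Poisson interval of that trial, 17.0 to 20.9 CPM, overlaps that of stage 15 in family 1, 15.6 to 26.3 CPM. RNA-seq differs from WTTS in scale, so the diamonds set no order against the squares.

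In the 7 WTTS trials of the pool, the median was at least 1 CPM for XLOC_016966 and XLOC_005873 alone. XLOC_016966 ranged from 0.0530 to 21.7 CPM with a median of 6.94 CPM, and XLOC_005873 from 0.239 to 18.9 CPM with a median of 2.46 CPM. XLOC_003994 ranged from 0 counts to 3.30 CPM with a median of 0.933 CPM. The trials used 1 RNA pool, so this range is technical, and in trials 2, 3 and 4 a single feature took 31.5% to 39.1% of counts. In all 7 trials all 12 members stayed below their stage 15 mean. The rule asks for a high stage 15 mean and the share over other features was not computed, so nothing is read from this.

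The members' positions showed no shared place in the genome. They lay on 8 of scaffolds 1 to 10, which hold 78.9% of all features, with 6 on each strand. No 2 lay within 50 kb, and the closest pair, XLOC_003970 and XLOC_003994, lay far apart on scaffold_10. Their spans, introns included, ran from 2414 to 24005 bp with a median of 12619 bp, against 10820 bp over all features. An overlap with a feature of the other strand was found in 1 of 12, against 19.1% of all features, and with one of the same strand in 1 of 12, against 5.81%.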

How the data were processed

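Raw read counts per feature, not normalized, were taken as the authors deposited them, with XLOC identifiers, scaffolds, starts, ends and strands per the file headers. How reads were aligned and counted, on which build and annotation and with what use of strand, was not given in the sources used here. Per the labels' protocols, RNA was extracted with Trizol, and Illumina and Ion Torrent protocols were used. Libraries were grouped by their titles, and every column was matched to a title.

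CPM was the count divided by the column total, on the CPM scale. Counts were fitted with edgeR 4.0.16 in R 4.3.3 on all features passing filterByExpr, with TMM scaling, the quasi-likelihood F-test and Benjamini-Hochberg adjustment, and SE is the size of the log2 change over the root of F. The onset fit used stage as factor in 6 RNA-seq libraries, and the family fits used stage and family. DESeq2 1.42.0, limma-voom (limma 3.58.1), other scaling, no filter and leaving out libraries were alternatives. The fits were run on simulated data with 200 changed features as a check of the code. Those data held the same spread for all features and no other difference between stages or families. Error rates in the real libraries are therefore not known from them. Python 3.11.15, scipy 1.17.1, pandas 2.3.3, numpy 2.4.6 and matplotlib 3.10.9 were used for the remaining work.

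The families pair the samples by their labels: deviations from the stage means correlated between stages of a family at 0.109 to 0.402 in 10 pairs of WTTS stages and at 0.268 to 0.573 in 3 pairs of RNA-seq stages. Counts of replicates differed by more than sampling noise (lowest chi-square over its degrees of freedom 17.9). The members and lists were chosen with earlier results of these data known. The naming rule took members by peak, ratio, RNA-seq change, family p and adult level, which came to cover all 12. Lists of named genes could not be applied without gene names.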

Additional observations from a re-analysis of the deposited data

Results flagged for a closer look

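In the 7 WTTS trials of the adult pool, 1 library stood far from the others in 2 of 12 members. By chance such a flag falls on about 1 group in 20 where repeats vary alike, but these trials differed in protocol. The share of all features flagged in this way was not computed, so nothing is read from the number. XLOC_005873 had 18.9 CPM in trial 1, against 5.73 CPM in the next highest trial. XLOC_001952 had 0.603 CPM in trial 6, from 9 counts, against 0.125 CPM in the next highest.

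By a fit of the difference itself, added after the gap had been seen and resting on 1 stage 11 library per family, 2 members were called with an unequal rise to stage 11 in RNA-seq. The rise was larger in family 2 than in family 1 by a log2 of 4.06 in XLOC_010557 and of 2.72 in XLOC_001952, and limma-voom called neither (adjusted p = 0.0759 and 0.0636). In XLOC_010557 the level at stage 11 lay above both early stages in family 2 and below both in family 1.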

How the results depend on the processing

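The number of features meeting the rule was 12, and 30 with TMM-scaled library sizes and 30 with 3-fold limits, both with all 12 members among them. It was 7 with at most 0.5 CPM at stages 6 and 8, 1 with 8-fold limits and 3 with the rule met in each family alone, and from 12 to 34 with 1 family left out. With limits of 5 CPM and 3-fold in family 2, 8 of the 34 features of family 1 met the rule there, in place of 3. At stage 11 in RNA-seq 10 members were called higher, with a range of 10 to 12 over libraries left out and 10 under every other alternative, and 0 lower throughout. With family as a replicate block, 10 were called and no call changed. The number higher in family 2 in RNA-seq was 0 with edgeR, 2 with DESeq2, 1 under limma-voom and 1 without the low-count filter, and stayed 0 without each stage. Over all features edgeR called 130 higher, DESeq2 476, limma-voom 223 and edgeR without the filter 201. Without stage as a replicate block, 0 members were called in either family test. The number at 1 CPM or more was 2 in the female, 1 with TMM scaling and 0 at 5 CPM, and 6 in adult RNA-seq, 3 with TMM scaling and 0 at 5 CPM. The number with a larger rise in family 2 was 2, and 0 with limma-voom, 3 with DESeq2 and 3 with no filter. No log2 change that passed the threshold turned its sign. Each member under each alternative was counted apart for the changes that had not passed. By that count the sign turned 9 times in each family test, 2 times in the stage test and 2 times for the difference in rise. At stage 11 against the early stages in RNA-seq, leaving out a library gave -0.97 to 3.10 in XLOC_010557 and -0.73 to 2.61 in XLOC_024887. For family 2 against family 1 in WTTS, leaving out a stage gave -0.76 to 0.20 in XLOC_006549 (0.0041 without stage as a replicate block), -0.36 to 0.19 in XLOC_018408, -0.47 to 0.16 in XLOC_024887, -0.67 to 0.44 in XLOC_003970, -0.089 to 0.24 in XLOC_010557 and -0.63 to 0.28 in XLOC_001952. In RNA-seq it gave -0.10 to 0.067 in XLOC_016966 (-0.011 with no filter), -1.37 to 0.34 in XLOC_006549 (0.63 with limma-voom, 1.03 without stage as a replicate block), -0.0045 to 2.07 in XLOC_010557 and -0.076 to 0.97 in XLOC_003994. The difference in rise ran from -1.06 to 0.23 in XLOC_020143 and from -0.35 to 0.71 in XLOC_005873 over libraries left out. The cause of these changes was not tested. Depth limits WTTS most, since 1 CPM is a few counts in an embryo library.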
